A study of Mus musculus with 22 samples.

Results

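The liver response to pregnancy was measured in mice raised without any microbes. Liver RNA of 5 pregnant germ-free mice was compared with that of 6 non-pregnant germ-free mice, which are 11 of the 22 libraries of the study. The other 11 libraries come from conventional mice, raised with their microbes, of which 5 were pregnant and 6 were not. The libraries were chosen by their labels, and each stands for 1 mouse. All mice were C57BL/6 females on the same autoclaved chow, water and bedding. Germ-free females were mated at 11 to 15 weeks of age and housed with males for 72 h. Day 2 after the males were introduced was taken as gestation day 0, so the collection at gestation day 15 is an assumed age of the pregnancy. Conventional females were mated at 8 weeks, overnight, with the night of mating as day 0. The age labels carry no unit and lay between 92 and 105 for non-pregnant germ-free mice, between 91 and 121 for pregnant germ-free mice and between 70 and 77 in both conventional groups. Whether the non-pregnant mice had been housed with males is not stated, and a pregnant mouse was compared with other mice, not with itself before mating.

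Pregnancy places new demands on the liver. It secretes most plasma proteins, among them the carriers of hormones, lipids and metals, and it supplies glucose, lipids and amino acids to the fetus through the maternal blood. Placental lactogens and prolactin act on hepatocytes through the prolactin receptor, a cytokine receptor that signals through JAK2 and STAT5, and maternal iron stores are opened when the hepatic hormone hepcidin falls. Proteins made for secretion fold in the endoplasmic reticulum (ER), whose chaperones are under the control of the unfolded protein response.

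Levels are given in CPM, a gene's share of the effective library size of its library. Changes are log2 differences, pregnant minus non-pregnant, with an approximate standard error (SE). This SE was calculated back from the test described next, as the absolute change divided by the square root of its F value. A gene was called higher or lower at a Benjamini-Hochberg adjusted p under 0.05 in edgeR's quasi-likelihood test, adjusted over all 15928 genes tested, and "rose" and "fell" are used of such genes only. The median SE over all genes tested was 0.231. The p-values weigh a change against the spread between mice of the same group, estimated over all 22 libraries, conventional ones included. In bulk liver, a change in the number of cells of a type and a change in RNA per cell cannot be told apart.

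The germ-free libraries held 19775710 to 24874256 estimated counts. Mitochondrially encoded genes took 8.11% to 32.0% of the counts in non-pregnant mice and 8.36% to 24.3% in pregnant mice, and were highest in non-pregnant mice 2 (27%) and 4 (32.0%). Non-pregnant mouse 2 was also low in albumin, and pregnant mouse 2 was high in several bile duct genes, so counts that rest on these livers are given with and without them. The 18 hepatocyte markers were detected in both groups and summed to 8.57% to 12.2% of scaled counts in non-pregnant and 17.7% to 27.6% in pregnant mice. They include abundant plasma protein genes, so their sum does not measure the share of hepatocytes apart from those genes. Of these 18, 11 were called higher and 1 lower by the test described above, with a median log2 change of 0.77, and 8 were called higher without pregnant mouse 2 and 6 with no filter on low counts. Of 19 placenta trophoblast markers, 8 were at 0 counts in all 5 pregnant livers, and all 19 together gave at most 57 counts in a pregnant and 380 in a non-pregnant library.

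Of the 15928 genes, 1139 (7.15%) were called higher and 574 (3.6%) lower in pregnant germ-free livers, together 10.8%. The counts of list members given below are to be read beside these shares. Genes outside the families that process drugs made up 15649 of the genes tested, and 1102 of them (7.04%) were called higher and 536 (3.43%) lower. Of the 279 genes of the drug-processing families 13.3% were called higher and 13.6% lower. Higher calls made up 66.5% of all calls, and 53.4% with upper quartile scaling. The median change was -0.02 over all genes, 0.89 over those called higher and -0.91 over those called lower. Among called genes, 478 were higher and 247 lower by more than 1 log2 unit, and 92 were higher and 23 lower by more than 3. In 8.47% of all genes the values of the 2 groups did not overlap, with the pregnant livers higher in 5.66% and lower in 2.81%. The lower calls outside the drug families numbered 353 without pregnant mouse 3.

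**Figure D1:**
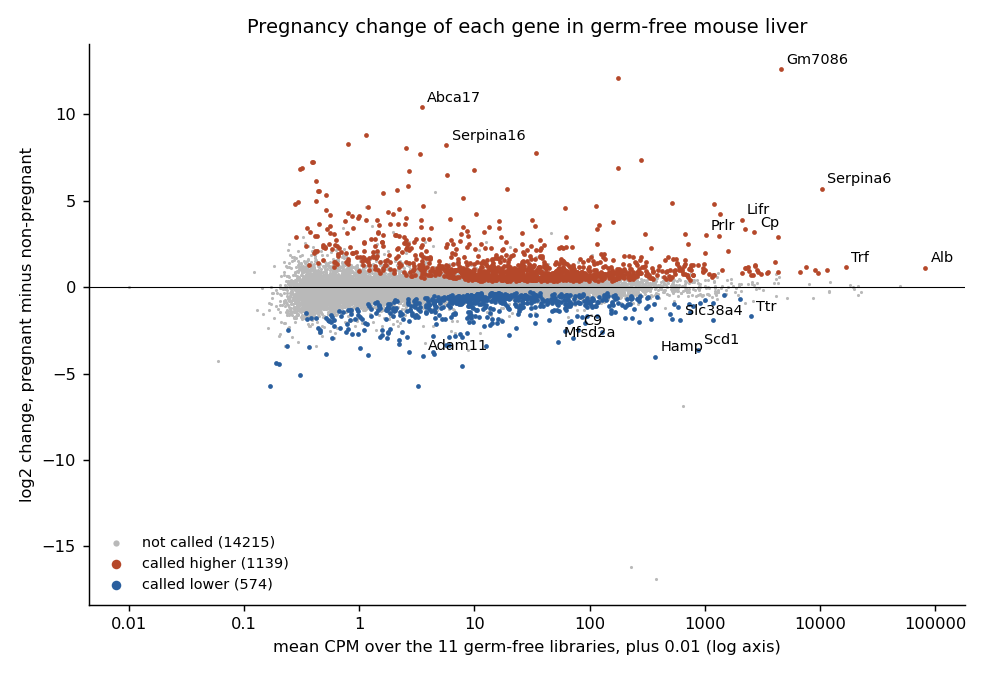
Log2 change with pregnancy in germ-free livers (vertical) against the mean level over the 11 germ-free libraries (horizontal, CPM on a log axis). Each point is a gene, red where called higher (1139), blue where called lower (574) and grey where not called. Gm7086 stands at the top, and Serpina6 and Alb show rises among the most abundant messages.

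The largest rises were of genes that the non-pregnant liver hardly used. The largest of all belonged to Gm7086 (ENSMUSG00000112930.2, chr15:60742858-60746535, plus strand), annotated as a transcribed unprocessed pseudogene and named here after its values were seen, since unnamed gene models were outside the naming rule. It gave 0.169 to 4.16 CPM in the 6 non-pregnant livers, with a median of 1.25. The 5 pregnant livers gave 8341, 10458, 10945, 9308 and 10719 CPM, all far above every non-pregnant one. Its log2 change was 12.60 ± 0.99 (adjusted p = 9.78e-09), and 12.31 ± 0.98 in conventional mice.

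Other genes that are quiet in the non-pregnant liver followed. Abca17, a member of the ABC lipid transporter family, had 0 counts in all 6 non-pregnant livers and 6.85, 12.6, 7.48, 2.85 and 8.43 CPM in the pregnant ones, at least 56.7-fold higher when 3 counts in each non-pregnant library (0.135 CPM) are taken as the limit of detection. The axonemal dynein heavy chain gene Dnah11 went from 0.0684 to 0.381 CPM, median 0.132, to 9.42, 15.6, 21.2, 25.3 and 35.6 CPM, a change of 6.78 ± 0.62 (adjusted p = 1.16e-07). Nptx1, a secreted neuronal pentraxin, rose by 6.51 ± 0.61, and Sorcs3, a sorting receptor of neurons, by 6.70 ± 0.56. The groups did not overlap in any of these genes. Insrr, the insulin receptor-related receptor, rose by 5.88 ± 1.02, the lens crystallin gene Crybb3 by 5.70 ± 0.47 and the collagen galactosyltransferase gene Colgalt2 by 5.16 ± 0.39. The serpin gene Serpina16 rose by 8.20 ± 0.84. The call of Insrr was lost with limma-voom (adjusted p = 0.178).

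Genes of receptors for pituitary and placental hormones and for a related cytokine rose together. Counts are per gene, so different transcript forms of a receptor gene were not told apart. Prlr, the prolactin receptor, stood at 148 to 308 CPM with a median of 244 in non-pregnant livers. Pregnant mice 1 to 5 gave 1553, 2259, 2218, 1657 and 2005 CPM, so the lowest pregnant liver was several times the highest non-pregnant one. The change was 3.02 ± 0.26 (adjusted p = 3.94e-08).

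Ghr, the growth hormone receptor, stood at 293 to 382 CPM, median 315, and at 2044, 3087, 2801, 2149 and 2606 CPM in the pregnant mice, a change of 2.95 ± 0.30 (adjusted p = 3.34e-07). Pregnant mice 2 and 3 were the highest and mice 1 and 4 the lowest for both receptors. Lifr, the receptor subunit for leukemia inhibitory factor, lies outside the naming rule and was chosen after its values were seen. It stood at 214 to 322 CPM, median 299, and at 3456, 3566, 5091, 4616 and 4442 CPM in pregnancy, with no overlap and a change of 3.91 ± 0.23 (adjusted p = 1.22e-10).

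Most genes below these receptors were not called. Of 15 genes of prolactin and growth hormone signalling, 4 were called higher, none lower, and their median change was 0.01. The other higher calls were Stat3, a STAT of cytokine receptors, by 0.81 ± 0.18, and Igfals, which holds IGF in a plasma complex, by 0.74 ± 0.21. Jak2 (0.13 ± 0.13), Stat5a (-0.45 ± 0.25), Stat5b (-0.22 ± 0.18) and the feedback inhibitors Socs2 (0.56 ± 0.40) and Cish (-0.16 ± 0.39) did not pass the test. Igf1, a growth hormone target, was also not called, at 456 to 1083 CPM in non-pregnant and 724, 611, 614, 321 and 430 CPM in pregnant mice (-0.33 ± 0.23, adjusted p = 0.401). Pregnant mice 4 and 5 lay below every non-pregnant liver and mice 1, 2 and 3 within their range.

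Insulin and IGF genes gave 5 higher calls of 24, none lower, with a median of 0.13. Igf2r, which clears IGF2, rose by 1.18 ± 0.18, the binding protein gene Igfbp4 by 0.94 ± 0.16 and the kinase gene Akt2 by 0.67 ± 0.13. Irs2, the insulin receptor substrate of fasting liver, rose by 2.15 ± 0.48 but unevenly: pregnant mice 1 and 2 gave 12.2 and 14.3 CPM, within the non-pregnant range of 2.72 to 20 CPM, while mice 3, 4 and 5 gave 44.9, 48.5 and 76.7 CPM. Irs2 changed by 0.19 ± 0.48 in conventional mice, and the difference between the 2 pregnancies did not pass the test (adjusted p = 0.863).

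The core letters of STAT5 sites, TTCNNNGAA (the same on both strands), were counted in the 250 bases before each RefSeq start. They were found in 6.17% of 14463 windows of tested genes, in 5.37% of 1117 windows of genes called higher and in 6.2% of 548 windows of genes called lower. A window of Prlr with a match is shown because Prlr is the receptor of the pregnancy hormones. The capitals mark the match, 110 bases before the start, in the RefSeq window of GRCm38.p6 at chr15:10223656-10223905 on the plus strand.
Prlr: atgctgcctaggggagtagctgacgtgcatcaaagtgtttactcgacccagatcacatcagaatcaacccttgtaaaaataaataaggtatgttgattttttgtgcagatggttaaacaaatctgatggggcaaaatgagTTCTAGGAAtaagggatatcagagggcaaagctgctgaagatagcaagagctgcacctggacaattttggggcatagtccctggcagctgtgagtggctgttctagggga

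**Figure D2:**
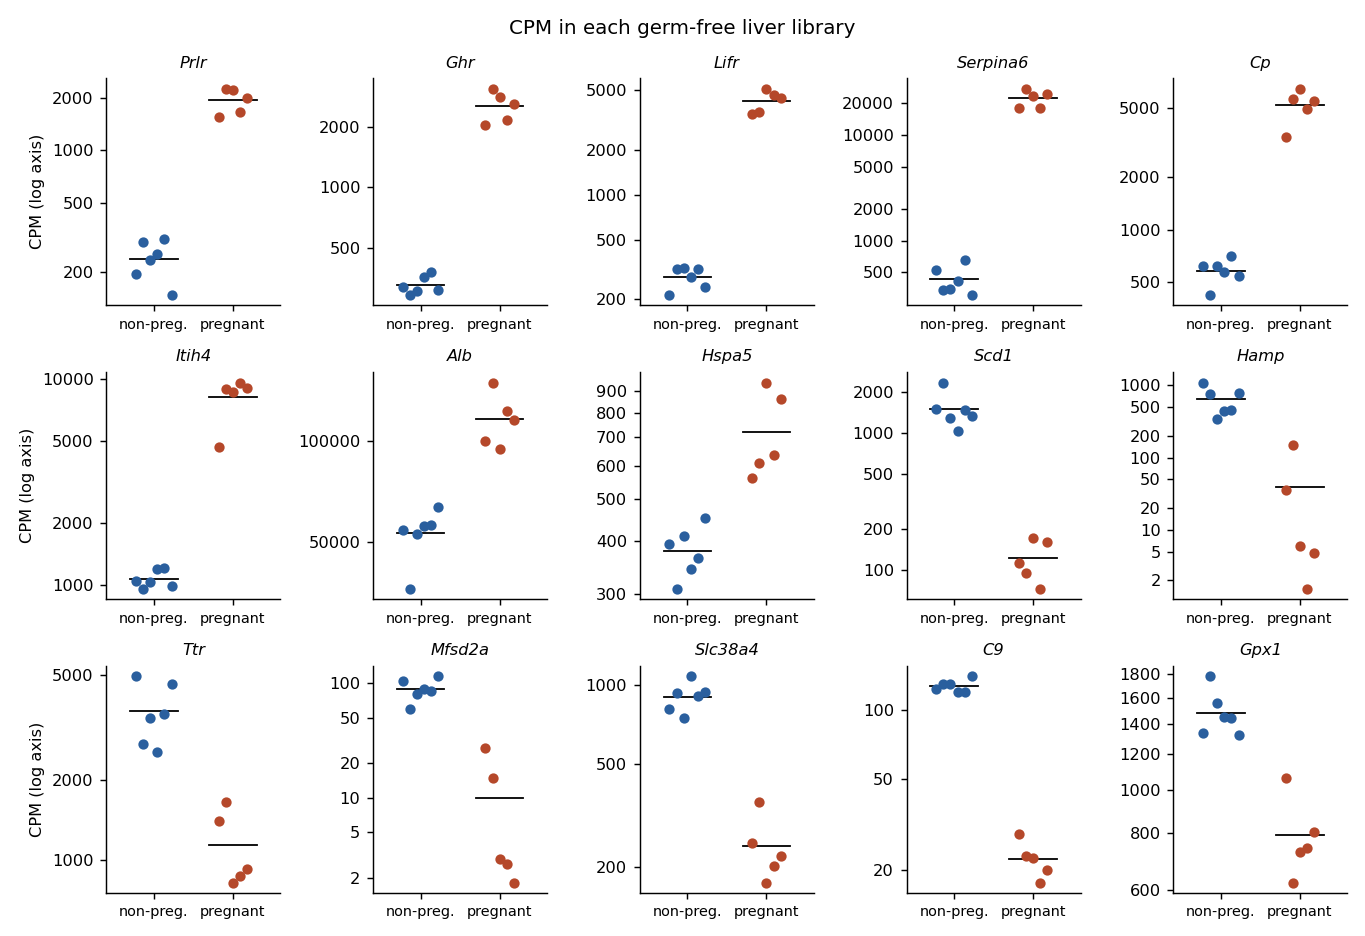
CPM on a log axis for 15 genes, with blue points for the 6 non-pregnant and red points for the 5 pregnant germ-free livers (in order of mouse number) and a line at each mean. The groups do not overlap in any panel. In Hamp, Ttr and Mfsd2a, pregnant mice 1 and 2 lie nearer the non-pregnant livers than mice 3, 4 and 5 do.

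Plasma carriers were among the genes with the largest gains in CPM. Serpina6 encodes corticosteroid-binding globulin, the plasma carrier of glucocorticoids and progesterone (ENSMUSG00000060807.7, chr12:103646630-103657212, minus strand). It stood at 306 to 650 CPM, median 379, in non-pregnant livers and at 17988, 27293, 23283, 18048 and 24462 CPM in pregnant ones. The change was 5.69 ± 0.43 (adjusted p = 6.08e-09), with no overlap.

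Alb, which encodes albumin, stood at 36217 to 63488 CPM, median 54983, and at 99865, 149355, 94390, 122938 and 115681 CPM in pregnancy, a change of 1.13 ± 0.28 (adjusted p = 0.00853). Non-pregnant mouse 2 was the lowest, and without it the change was 1.04 (adjusted p = 0.0209). With no filter on low counts the call was lost (1.08, adjusted p = 0.127). Trf, the plasma iron carrier transferrin, stood at 10060 to 11049 CPM and rose to 15634, 30212, 23734, 25572 and 23986 CPM (1.17 ± 0.21). Pregnant mouse 1 was the lowest and mouse 2 the highest.

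Of 22 tested carrier proteins of plasma hormones and lipids, 9 were called higher and 2 lower, with a median of 0.31. They summed to 11% to 14.1% of scaled counts in non-pregnant and 19.7% to 29% in pregnant livers. Lipoprotein genes were among the rises: Apoa4 by 1.32 ± 0.21, Apoa1 by 0.97 ± 0.29, Apob by 0.72 ± 0.19 and Mttp, which loads lipid onto apolipoprotein B, by 0.59 ± 0.17. Apoc2, the cofactor of lipoprotein lipase, rose by 3.10 ± 0.81. The higher count was 8 without pregnant mouse 2, 7 without non-pregnant mice 2 and 4 and 5 with no filter on low counts.

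Ttr and Apoa5 went the other way. Ttr encodes transthyretin, a carrier of thyroid hormone and of retinol-binding protein, and stood at 2567 to 4957 CPM, median 3503, in non-pregnant livers. The pregnant livers gave 1402, 1660, 818, 868 and 921 CPM, so all lay below the non-pregnant range and mice 3, 4 and 5 lowest. The change was -1.69 ± 0.25 (adjusted p = 5.37e-05). Apoa5, which aids the clearance of triglyceride from plasma, fell by 0.89 ± 0.19, with 793 and 904 CPM in pregnant mice 1 and 2 and 509, 426 and 427 CPM in mice 3, 4 and 5.

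Many genes of clotting and the acute phase were called higher. Of 33 tested genes of coagulation and fibrinolysis, 18 were called higher and none lower, with a median of 0.74, and 15 without pregnant mouse 2. The lower count was 1 with upper quartile scaling, with DESeq2, without mitochondrial genes and in germ-free libraries alone. F7, the factor that starts clotting with tissue factor, stood at 112 to 151 CPM, median 123, and at 571, 547, 631, 616 and 637 CPM in pregnancy. Its change was 2.24 ± 0.20 (adjusted p = 9.2e-08), and the pregnant livers lay close together.

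Both clotting factors and their brakes were among the 18. Prothrombin (F2) rose by 1.13 ± 0.20, F5 by 1.2 ± 0.20, F10 by 1.31 ± 0.18 and the fibrinogen chains Fga, Fgb and Fgg by 1.26 ± 0.28, 0.83 ± 0.18 and 0.97 ± 0.18. Among inhibitors, Serpina10, which inhibits factor Xa with protein Z, rose by 1.43 ± 0.16, its partner Proz by 0.92 ± 0.17 and antithrombin (Serpinc1) by 0.88 ± 0.19. Plasminogen (Plg), the precursor of the clot-dissolving enzyme, rose by 1.09 ± 0.18.

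In the acute-phase list, 15 of 31 were called higher and none lower (median 0.89). The medians of the clotting and acute-phase lists lay near that of the hepatocyte markers (0.77), which are themselves in part plasma protein genes. The part of the hepatocyte share in these calls was not tested. Itih4, a heavy chain of the inter-alpha-trypsin inhibitor family, stood at 960 to 1215 CPM, median 1039, and at 4650, 8917, 8613, 9585 and 9013 CPM in pregnancy (2.93 ± 0.29, adjusted p = 2.6e-07). Pregnant mouse 1 was well below the other 4 and still well above all non-pregnant mice. Lbp, the carrier of bacterial lipopolysaccharide, rose by 1.51 ± 0.21, and C-reactive protein (Crp) by 0.65 ± 0.14. The serum amyloid genes Saa1 and Saa2, which lead an inflammatory acute phase, were not called. Saa1 changed by 0.33 ± 0.91 and Saa2 by 0.26 ± 1.00, at 13.9 to 62.2 CPM and 5.47 to 43.5 CPM in non-pregnant livers. These SEs are wide, so changes as large as the list median are not excluded. Haptoglobin (Hp) was not called (0.75 ± 0.32, adjusted p = 0.144) but its groups did not overlap.

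Complement gave 9 higher calls of 30 and 1 lower, with a median of 0.24. C3, the centre of the cascade, rose by 0.86 ± 0.23, C4b by 1.00 ± 0.20, the inhibitor Cfi by 1.10 ± 0.21 and vitronectin (Vtn), which blocks the membrane attack complex, by 1.47 ± 0.21. The 1 fall was of C9, the pore-forming last component, which stood at 119 to 140 CPM, median 126, and at 28.8, 23, 22.5, 17.6 and 20 CPM in pregnancy. Its change was -2.50 ± 0.39 (adjusted p = 0.000123), and the 2 groups were far apart.

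**Figure D3:**
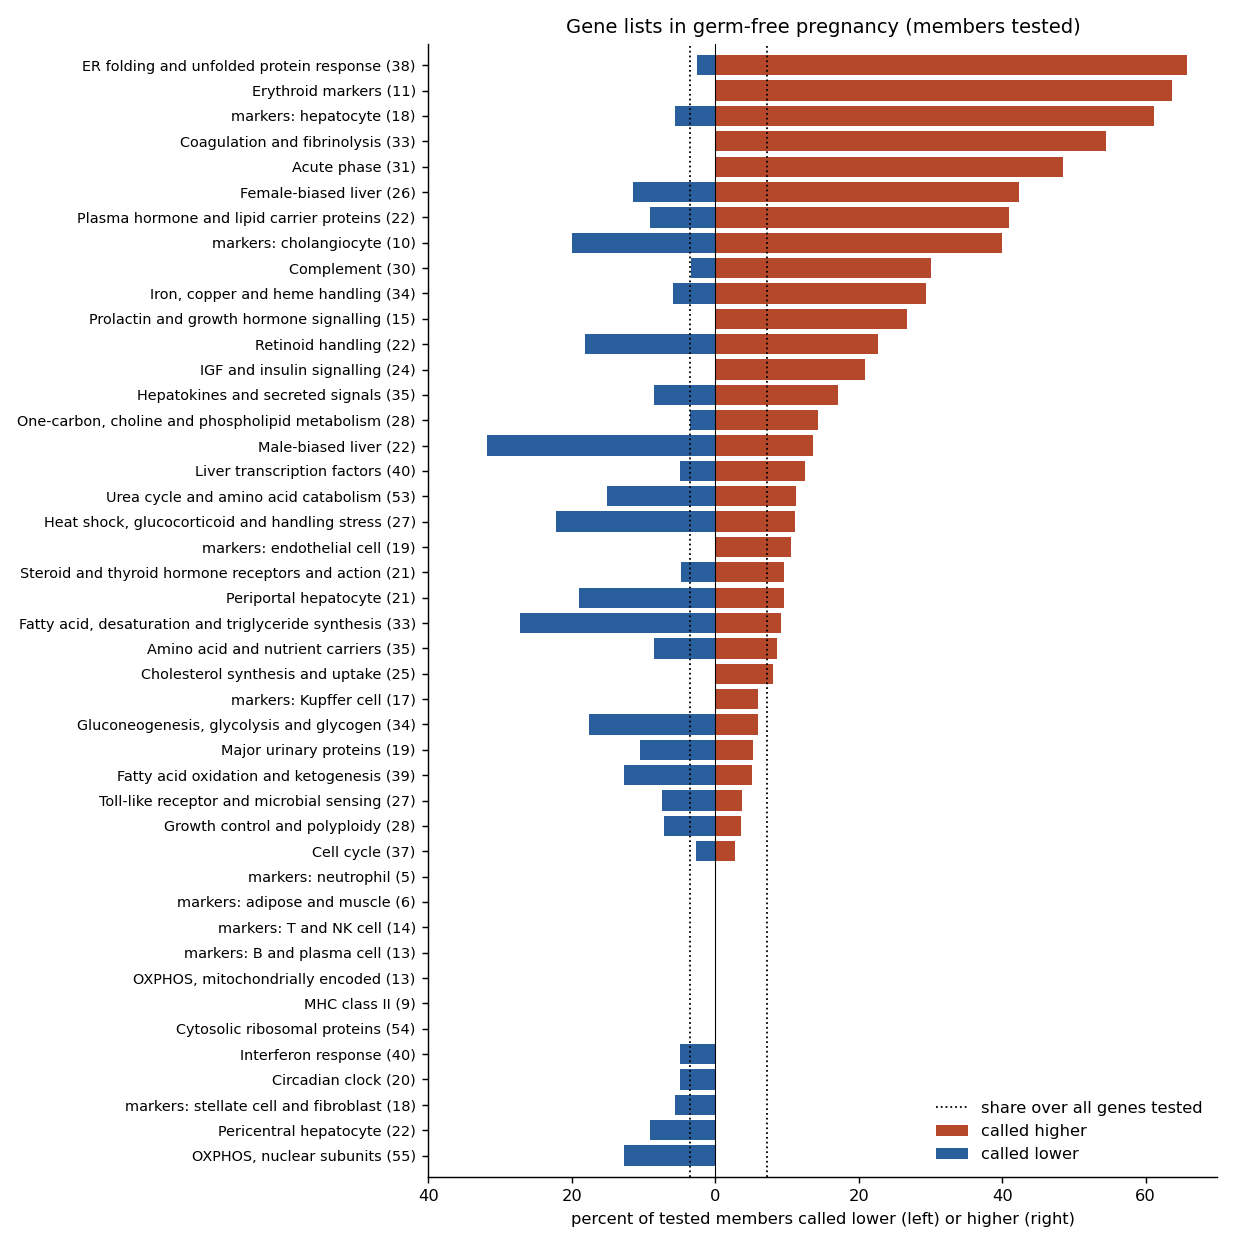
Share of tested members of each gene list called higher (right, red) or lower (left, blue) in germ-free pregnancy, with the number of members tested in brackets and dotted lines at the shares over all genes tested (7.15% and 3.6%). ER folding (65.8%), erythroid (63.6%), hepatocyte marker (61.1%), clotting (54.5%) and acute-phase (48.4%) bars reach far past the right line. So do the female-biased (42.3%) and plasma carrier (40.9%) bars. On the left, the male-biased (31.8%), fatty acid synthesis (27.3%) and heat shock (22.2%) bars reach furthest. The cholangiocyte bar on the right rests on pregnant mouse 2.

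Genes that fold secreted proteins gave the most higher calls of the lists. Of 38 genes of ER folding and the unfolded protein response, 25 (65.8%) were called higher and 1 lower, with a median of 0.82 against -0.02 over all genes and 0.77 over the hepatocyte markers. The 38 genes summed to 4829 to 5560 CPM in non-pregnant and 8397 to 11596 CPM in pregnant livers. The higher calls numbered 25 without pregnant mouse 2 and 19 without non-pregnant mice 2 and 4.

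The calls ran from entry into the ER to exit from it. Sec61a1, the channel through which new proteins enter the ER, stood at 100 to 123 CPM, median 115, and at 202, 185, 280, 240 and 296 CPM in pregnancy (1.07 ± 0.15, adjusted p = 3.6e-05). The chaperone Hspa5 (BiP) went from 308 to 451 CPM, median 378, to 562, 609, 943, 636 and 864 CPM (0.93 ± 0.22, adjusted p = 0.00543). Pregnant mice 3 and 5 were the highest for both.

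Calreticulin (Calr), which folds glycoproteins, rose by 1.34 ± 0.17, and the disulfide isomerases Pdia6, Pdia4 and Pdia3 by 1.55 ± 0.21, 1.26 ± 0.24 and 0.96 ± 0.15. Sdf2l1, a partner of BiP, rose by 2.24 ± 0.37, and the coat protein gene Sec13 of vesicles that leave the ER by 1.09 ± 0.15. Of the sensors and factors of the response, Atf6 rose by 0.83 ± 0.17, Xbp1 by 0.72 ± 0.20 and Eif2ak3 (PERK) by 0.64 ± 0.18. Ern1 (IRE1) was not called. Ddit3 (CHOP), a factor of unresolved ER stress, fell by 1.13 ± 0.34, and the list gave 0 lower calls without each of non-pregnant mice 1, 2 and 6 and pregnant mice 2, 3 and 5. Atf4, which acts above Ddit3, was not called (-0.06 ± 0.21).

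**Figure D4:**
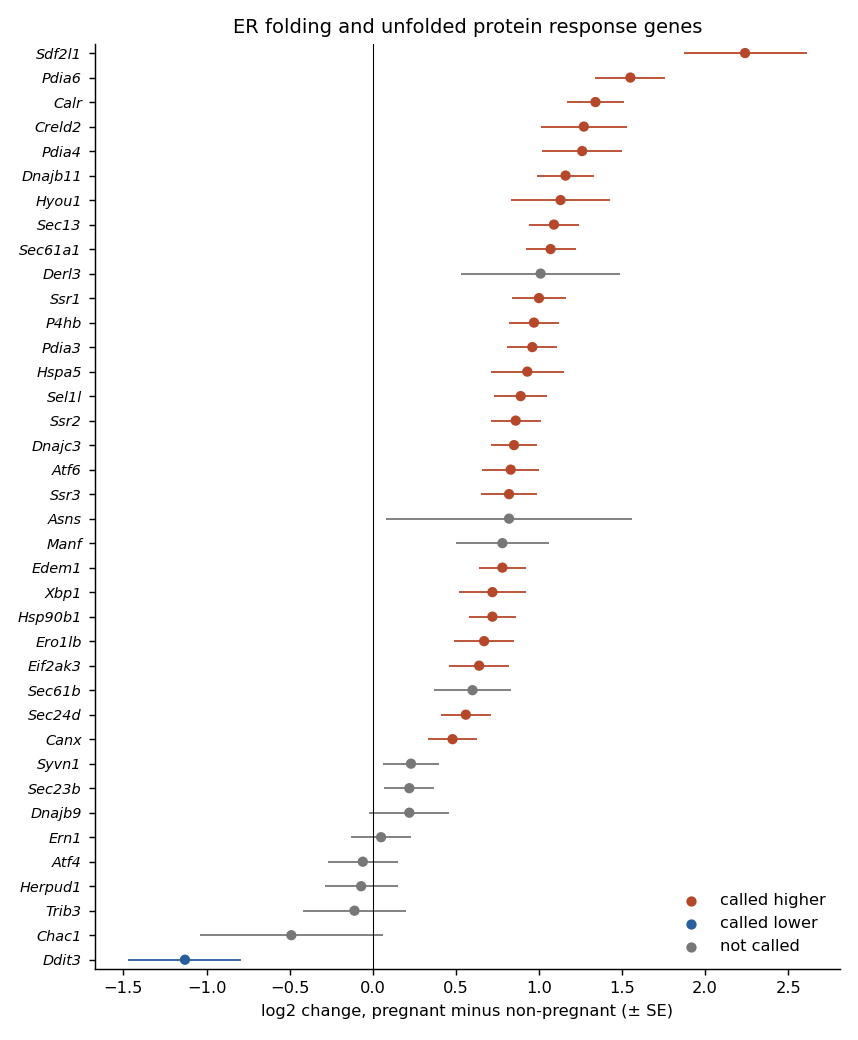
Log2 change ± SE in germ-free pregnancy of the 38 ER folding and unfolded protein response genes, in order of change. Red genes were called higher (25), the blue gene lower (Ddit3) and grey genes not called. All 25 red genes lie right of 0, with Sdf2l1 (2.24) and Pdia6 (1.55) far to the right, and Ddit3 (-1.13) lies left of 0.

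Several of these promoters hold the ER stress response element, CCAAT and CCACG with 9 bases of any kind between them, on either strand. The motif is named for ER stress and was searched for after the ER counts had been seen, so its share in the ER list does not test the calls. It occurs in 19 of 14463 windows of 250 bases before a start (0.131%). Of 1117 windows of genes called higher 7 hold it (0.627%), and of 548 of genes called lower 0 do. All 7 belong to the ER list: Hspa5, Calr, Hsp90b1, Canx, Pdia6, Dnajc3 and Creld2. In the ER list, 9 of 33 windows hold it (27.3%), the other 2 being those of Derl3 and Syvn1, which were not called. The windows of 4 of these genes are shown 5′ to 3′ on the strand of the gene, from RefSeq on GRCm38.p6, with the element in capitals (in Calr and in the second match of Hsp90b1 it lies on the opposite strand). They are Hspa5 at chr2:34771840-34772089 (plus), Hsp90b1 at chr10:86705445-86705694 (minus), Calr at chr8:84846932-84847181 (minus) and Pdia6 at chr12:17266339-17266588 (plus).
Hspa5: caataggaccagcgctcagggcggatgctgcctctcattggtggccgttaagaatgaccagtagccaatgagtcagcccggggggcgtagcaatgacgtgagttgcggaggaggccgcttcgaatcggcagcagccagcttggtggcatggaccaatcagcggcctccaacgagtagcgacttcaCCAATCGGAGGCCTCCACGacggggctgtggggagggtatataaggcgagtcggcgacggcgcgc
Hsp90b1: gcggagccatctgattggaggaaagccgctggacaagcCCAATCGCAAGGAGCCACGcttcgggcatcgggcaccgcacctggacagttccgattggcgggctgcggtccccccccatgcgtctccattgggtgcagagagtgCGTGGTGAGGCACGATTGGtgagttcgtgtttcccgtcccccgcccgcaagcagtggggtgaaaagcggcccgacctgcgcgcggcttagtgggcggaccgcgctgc
Calr: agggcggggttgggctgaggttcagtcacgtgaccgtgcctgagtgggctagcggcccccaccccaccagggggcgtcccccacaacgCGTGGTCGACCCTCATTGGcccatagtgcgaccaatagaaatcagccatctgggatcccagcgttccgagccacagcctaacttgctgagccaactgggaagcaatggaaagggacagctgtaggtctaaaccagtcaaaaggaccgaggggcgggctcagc
Pdia6: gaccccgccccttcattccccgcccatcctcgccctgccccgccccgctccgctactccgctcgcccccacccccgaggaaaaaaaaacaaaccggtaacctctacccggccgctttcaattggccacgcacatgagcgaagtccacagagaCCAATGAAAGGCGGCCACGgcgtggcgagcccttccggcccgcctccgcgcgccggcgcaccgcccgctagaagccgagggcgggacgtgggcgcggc

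Among iron genes, that of the hormone hepcidin fell furthest. Hamp encodes hepcidin, which blocks the export of iron from cells (ENSMUSG00000050440.8, chr7:30942368-30944032, minus strand). It stood at 340 to 1086 CPM, median 604, in non-pregnant livers. The pregnant livers gave 35.7, 150, 6, 1.54 and 4.74 CPM. All lay below the non-pregnant range, and mice 1 and 2 were far above the other 3. The change was -4.02 ± 0.84 (adjusted p = 0.0024).

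Of 34 genes of iron, copper and heme, 10 were called higher and 2 lower, with a median of 0.28. Ceruloplasmin (Cp), the copper ferroxidase of plasma, stood at 422 to 707 CPM, median 594, and at 3436, 5683, 6470, 4957 and 5510 CPM in pregnancy (3.17 ± 0.25, adjusted p = 1.06e-08). Genes of the signals that control hepcidin, and targets of those signals, split. Tfr2 and Hfe2 (hemojuvelin), which sense iron, rose by 0.73 ± 0.15 and 0.62 ± 0.14. Id1, a target of BMP signals, rose by 1.68 ± 0.33, and Smad7, another target and a brake on hepcidin, fell by 0.89 ± 0.24. Bmp6, the signal itself, changed by -0.39 ± 0.20 and was not called. The call of Smad7 was lost without non-pregnant mice 2 and 4 (adjusted p = 0.0756). The iron exporter gene Slc40a1 rose by 0.54 ± 0.12, and the metal-binding Mt2 and Mt1 by 2.50 ± 0.46 and 2.07 ± 0.48.

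Red cell genes were also called. Of 11 tested erythroid markers 7 were called higher and none lower, with a median of 1.77, and the 11 summed to 257 to 1801 CPM in non-pregnant and 1781 to 3613 CPM in pregnant livers. Alas2, the first enzyme of heme synthesis in red cell precursors, stood at 11.1 to 27.7 CPM, median 18.3, and at 39.7, 54.7, 87.0, 73.0 and 62.3 CPM (1.83 ± 0.28, adjusted p = 0.000112). The membrane band 3 gene Slc4a1 rose by 4.53 ± 0.62. The globin genes Hba-a1 and Hba-a2 rose by 1.75 ± 0.39 and 1.77 ± 0.43, but their sequences are near-identical, so reads may be split between them. Whether blood left in the tissue or red cell precursors carried these messages was not tested.

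Lipid synthesis genes gave more lower than higher calls. Scd1, the desaturase that makes oleate (ENSMUSG00000037071.2, chr19:44394455-44407879, minus strand), stood at 1029 to 2341 CPM, median 1410, and at 112, 95.0, 171, 73.0 and 160 CPM in pregnancy. No pregnant liver came near the non-pregnant range. Its change was -3.62 ± 0.29 (adjusted p = 1.37e-08).

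Of 33 tested lipid synthesis genes (fatty acids, desaturation, triglycerides), 9 were called lower and 3 higher, with a median of -0.32. The regulator Srebf1 fell by 0.88 ± 0.23, Acly, which supplies acetyl-CoA, by 0.82 ± 0.25, Me1, which supplies NADPH, by 0.90 ± 0.24, and the lipid droplet gene Cidec by 1.32 ± 0.38. Fatty acid synthase (Fasn) was not called (-0.59 ± 0.38, adjusted p = 0.376), nor was Acaca. In contrast, the desaturase gene Fads1 rose by 1.16 ± 0.21 and the fatty acid receptor gene Cd36 by 0.73 ± 0.20. The lower count was 5 without pregnant mouse 2, 3 without mouse 4 and 5 without mouse 5, and the higher count 1 without mouse 5, where the call of Cd36 was lost (adjusted p = 0.0831). Cholesterol synthesis and uptake gave 2 higher calls of 25 (8%, against 7.15% over all genes) and none lower. Tm7sf2, a sterol reductase gene, rose by 0.66 ± 0.21, and its call was lost without non-pregnant mouse 2 (adjusted p = 0.0698). The cholesterol count was 1 without each of non-pregnant mice 1, 2, 4 and 6 and pregnant mice 1, 3 and 5, and 4 without non-pregnant mouse 5, and 1 gene was called lower without non-pregnant mouse 2.

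Mfsd2a, the carrier of lysophospholipids with long polyunsaturated chains, stood at 59.1 to 115 CPM, median 87.0, and at 27.2, 14.9, 2.93, 2.66 and 1.82 CPM in pregnancy. Pregnant mice 1 and 2 lay between the non-pregnant livers and the other 3. The change was -3.18 ± 0.66 (adjusted p = 0.00229).

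In fatty acid oxidation, 5 of 39 genes (12.8%) were called lower and 2 (5.13%) higher, with a median of 0.02. The shares over all genes were 3.6% and 7.15%. The peroxisomal enzyme genes Acaa1b and Ehhadh fell by 1.56 ± 0.29 and 0.71 ± 0.17, together with the peroxisome division gene Pex11a (-0.69 ± 0.21) and the coactivator Ppargc1a (-1.14 ± 0.25). Cpt1a, which controls the entry of fatty acids into mitochondria, was not called (-0.17 ± 0.21). The higher count was 4 without pregnant mouse 1, and 1 without each of non-pregnant mice 1, 2, 3 and 6 and pregnant mice 3, 4 and 5.

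Sugar metabolism showed falls in fructose and glycogen genes. Of 34 genes of glucose and glycogen handling, 6 were called lower and 2 higher, with a median of -0.18. Ketohexokinase (Khk), which begins fructose breakdown, fell by 1.00 ± 0.16, Ugp2, which makes UDP-glucose, by 0.78 ± 0.14, Pygl, which breaks down glycogen, by 0.54 ± 0.16 and the branching enzyme gene Gbe1 by 0.86 ± 0.26. Lactate dehydrogenase (Ldha) rose by 1.07 ± 0.20. The gluconeogenic Pck1 (-0.30 ± 0.23) and G6pc (0.28 ± 0.49) were not called. The lower count was 3 without non-pregnant mouse 5, without pregnant mouse 2 and without pregnant mouse 4.

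Among 53 genes of the urea cycle and amino acid breakdown, 8 were called lower and 6 higher, with a median of -0.16. The alanine aminotransferases Gpt and Gpt2 fell by 0.67 ± 0.19 and 0.64 ± 0.21, the tryptophan oxygenase Tdo2 by 0.99 ± 0.25, proline dehydrogenase (Prodh) by 1.10 ± 0.32 and the lysine enzyme Aass by 0.95 ± 0.25. Serine dehydratase (Sds) fell by 1.77 ± 0.43, with 162 and 140 CPM in pregnant mice 1 and 2 and 48.1, 48.2 and 44.4 CPM in mice 3, 4 and 5, against 138 to 628 CPM in non-pregnant livers. The rises were of the glycine, methionine and tyrosine enzymes Bhmt (1.15 ± 0.24), Gldc (1.19 ± 0.34), Amt (1.03 ± 0.23), Mat1a (0.69 ± 0.21), Shmt2 (0.54 ± 0.14) and Tat (0.68 ± 0.21). Single mice moved these counts: the lower count was 5 without non-pregnant mouse 5 or 6 and 4 without pregnant mouse 3, 4 or 5. DESeq2 gave 14 lower, and the higher count was 3 with no filter on low counts, without non-pregnant mouse 3 or 6 or pregnant mouse 2 and 2 without pregnant mouse 5. The calls of Mat1a, Gpt and Aass were among those lost, Mat1a under 11 of 22 settings, Gpt under 4 and Aass under 1.

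Slc38a4, a carrier of neutral amino acids into hepatocytes, stood at 747 to 1081 CPM, median 922, and at 247, 356, 175, 203 and 222 CPM in pregnancy (-1.91 ± 0.27, adjusted p = 4.13e-05). The arginine carrier gene Slc7a2 fell by 1.20 ± 0.29. Slc43a1, which carries large neutral amino acids out of cells, rose by 1.55 ± 0.28. Over all 35 amino acid and nutrient carriers 3 were called higher and 3 lower (8.57% each, against 7.15% and 3.6% over all genes). Without non-pregnant mouse 2 the lower count was 5. The higher count was 5 without pregnant mouse 1 and 6 in germ-free libraries alone.

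Vitamin A genes moved both ways, with 5 of 22 called higher and 4 lower. Cyp26b1 and Cyp26a1 both break down retinoic acid, and they moved in opposite directions: Cyp26b1 stood at 3.11 to 14.2 CPM, median 5.91, and at 0.306, 0.436, 0.139, 1.26 and 0.527 CPM in pregnancy (-3.78 ± 0.60), while Cyp26a1 rose by 2.25 ± 0.34. Lrat, which stores retinol as esters and marks stellate cells, fell by 1.30 ± 0.24 and the lipid droplet retinol dehydrogenase gene Hsd17b13 by 1.33 ± 0.21. Bco1, which cleaves beta-carotene, rose by 1.89 ± 0.23, and the retinaldehyde dehydrogenase gene Aldh1a1 by 0.77 ± 0.19. Retinol-binding protein (Rbp4), the partner of transthyretin in plasma, was not called (0.15 ± 0.19).

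Signals that the liver sends to other organs changed in part. Of 35 tested hepatokines and secreted signals 6 (17.1%) were called higher and 3 (8.57%) lower. The higher count was 4 without pregnant mouse 2 and 4 without non-pregnant mice 2 and 4. Rarres2 (chemerin) stood at 371 to 620 CPM, median 518, and at 182, 198, 108, 109 and 120 CPM in pregnancy (-1.82 ± 0.22, adjusted p = 3.61e-06). Lect2 fell by 1.15 ± 0.18. Enho (adropin) rose by 1.53 ± 0.31, the activin subunit gene Inhbc by 1.34 ± 0.21 and selenoprotein P (Selenop), which carries selenium, by 0.98 ± 0.23. Gpx1, a selenium enzyme that removes peroxide, fell by 0.90 ± 0.21, at 1321 to 1783 CPM in non-pregnant and 1062, 622, 727, 743 and 805 CPM in pregnant livers. Igfbp1 was not called (1.86 ± 0.65, adjusted p = 0.069), although all 5 pregnant livers, at 127 to 213 CPM, lay above the non-pregnant maximum of 104 CPM.

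Genes known to differ between female and male mouse livers were called in both directions, here within females. Outside the drug families, 5 of 13 tested female-biased genes were called higher and 2 lower, and of 15 male-biased genes 2 were called higher and 4 lower. With the drug families included, 3 of 22 male-biased genes were called higher and 7 lower. That lower count was 4 in germ-free libraries alone, also with the replicate number as a block or the age label as covariate. The higher count was 5 with the block and without non-pregnant mouse 6. A1bg, a female-biased plasma protein, varied from 4.37 to 291 CPM among non-pregnant livers, median 35.1, and stood at 2797, 2029, 2616, 2655 and 2628 CPM in pregnancy (4.82 ± 0.94, adjusted p = 0.00116). The non-pregnant values were spread widely and the pregnant ones lay close together. Nudt7, a male-biased coenzyme A hydrolase of peroxisomes, fell by 1.73 ± 0.22. Serpina1e, counted as male-biased, rose by 4.21 ± 0.86, though its near-identical sisters make the value of a single copy uncertain. Mup20 (darcin), a male urinary pheromone carrier, fell by 2.94 ± 0.54.

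Few cell division genes were called. Of 37 cell cycle genes 1 was called higher, the DNA licensing gene Cdt1 (1.41 ± 0.32), and 1 lower, the cyclin Ccnd1 (-1.03 ± 0.25). Each is 2.7% of the list, against 7.15% higher and 3.6% lower over all genes. Yet 33 of the 37 had a change above 0, and the median was 0.54. Their sum ran from 185 to 310 CPM in non-pregnant and from 154 to 231 CPM in pregnant livers. The proliferation marker Mki67 stood at 1.95 to 4.62 CPM, median 3.72, and at 5.57, 6.41, 10.8, 13.1 and 9.15 CPM in pregnancy. The groups did not overlap, but the change did not pass the test (1.34 ± 0.55, adjusted p = 0.131). None of 54 cytosolic ribosomal protein genes was called, with a median of 0.03 (edgeR quasi-likelihood test), and 1 was in germ-free libraries alone and with DESeq2. Of 28 genes of growth control and polyploidy 1 was called higher and 2 lower, the cyclins Ccnd1 and Ccnd3 (-0.52 ± 0.14). Gadd45b, a gene of growth arrest and the DNA damage response, rose by 2.30 ± 0.33, from 1.54 to 2.79 CPM to 16.1, 7.47, 6.18, 13.4 and 7.00 CPM.

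Among 55 nuclear genes of the respiratory chain 7 were called lower and none higher, and 52 had a change of 0 or below (median -0.29). Ndufs7, a subunit of complex I, fell by 1.11 ± 0.20, Cox5a of complex IV by 0.75 ± 0.18, and Sdhd of complex II by 0.58 ± 0.14. The 13 subunits encoded in the mitochondrial genome gave no call, and their sum ran from 6.62% to 34.3% of scaled counts in non-pregnant and from 8.69% to 29.9% in pregnant livers. The nuclear count was 11 in a fit of the germ-free libraries alone, and 3 or 4 without each of non-pregnant mice 1, 2 and 6 and pregnant mice 2, 3, 4 and 5. The mitochondrial share differed widely within both groups, and its part in these calls was not tested.

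Immune genes gave few calls in these mice. None of 9 MHC class II genes, 14 T and NK cell markers, 13 B and plasma cell markers or 5 neutrophil markers was called, and 1 of 17 Kupffer cell markers was (Slc40a1). A change above 0 was seen in 0 of the 9, 1 of the 14, 2 of the 13 and 2 of the 5. Their medians were -0.76, -0.54, -0.36 and -0.28. The T and NK, B and plasma and neutrophil markers summed to at most 21.3, 41.8 and 8.68 CPM in any germ-free library, so their lack of calls says little. Of 40 interferon response genes none was called higher and 2 lower, Usp18 (-1.24 ± 0.31) and Ifi44 (-1.16 ± 0.35). The median of the 40 was -0.30, and 7 had a change above 0. The lower count was 1 without non-pregnant mouse 1, 2 or 5 or pregnant mouse 2, 3 or 5, and 4 without non-pregnant mouse 4 or pregnant mouse 1 and with DESeq2. Of 27 tested genes of Toll-like receptors and microbial sensing 1 (3.7%) was called higher and 2 (7.41%) lower. Their median was 0.06, and 16 had a change above 0. Their higher count was 2 without non-pregnant mouse 2 and without pregnant mouse 1. Tlr5, the sensor of bacterial flagellin, was among the falls, at low levels. It went from 1.07 to 3.21 CPM to 0.550, 0.810, 0.372, 0.980 and 0.815 CPM (-1.83 ± 0.46).

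Bile duct markers set pregnant mouse 2 apart. Krt19 gave 62.8 CPM in that liver and 2.4 to 3.2 CPM in the other 4 pregnant ones, Muc1 gave 40.3 CPM against 0.232 to 0.863 CPM, and Cd24a 83.0 CPM against 4.34 to 6.76 CPM. Of 10 tested cholangiocyte markers 4 were called higher, and 1 was without this mouse, with DESeq2 and with limma-voom. Without it the change of Krt19 was 0.69 (adjusted p = 0.242), of Muc1 -0.88 (adjusted p = 0.417) and of Cd24a 0.48 (adjusted p = 0.478). Spp1 and Krt23 were called lower, by 1.07 ± 0.24 and 3.37 ± 0.38. Of 22 pericentral genes, those of hepatocytes around the central vein, 2 were called lower and none higher, and 4 were called lower without non-pregnant mouse 2 and with DESeq2. The higher count was 2 in germ-free libraries alone, with and without the age label as covariate, and 1 with DESeq2, without non-pregnant mouse 5 and without pregnant mouse 1.

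The same change was measured in conventional mice, which share no library with the germ-free comparison. In conventional pregnancy 875 genes (5.49%) were called higher and 561 (3.52%) lower. Both comparisons called 577 genes higher, which is 50.7% of the germ-free and 65.9% of the conventional calls, and 291 lower, which is 50.7% and 51.9%. No gene was called in opposite directions. Of the 1139 genes called higher in germ-free mice 1110 (97.5%) had a change above 0 in conventional mice, and of the 574 called lower 547 (95.3%) had one below 0. Their median changes in conventional mice were 0.59 and -0.69.

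The difference between the 2 pregnancy changes was called for 0 genes (0%) by edgeR's quasi-likelihood test, with 903 genes at an unadjusted p under 0.05. DESeq2 called 7 and limma-voom 2. Among the 7, Gm20708, Rps23-ps1, Gm10925 and Gm28661 had extreme log2 differences of 24.31, -25.97, -30.00 and -29.36. These were called under no other setting. Scd1 and the cytochrome P450 gene Cyp2b13 came nearest in edgeR's test. Scd1 changed by -3.62 ± 0.29 in germ-free and by -1.55 in conventional mice, a difference of -2.06 (adjusted p = 0.0717). It passed with DESeq2 (adjusted p = 3.56e-05), limma-voom (adjusted p = 0.0335) and no filter on low counts (adjusted p = 0.0484). Cyp2b13 changed by -1.47 and -3.64, a difference of 2.16 (adjusted p = 0.0717). It passed with DESeq2 (adjusted p = 1.85e-05), limma-voom (adjusted p = 0.0335), no filter (adjusted p = 0.0102) and without each of conventional pregnant mice 2 and 3 and germ-free non-pregnant mouse 6. Prlr changed by 3.02 and 2.69, Hamp by -4.02 and -3.11, and Ttr by -1.69 and -1.46.

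Some inflammatory and proliferative genes were called in conventional pregnancy and not in germ-free pregnancy. Saa2 changed by 4.90 ± 1.12 in conventional and 0.26 ± 1.00 in germ-free mice, the chemokine gene Cxcl10 by 4.67 ± 1.08 and -1.06 ± 1.11, and the topoisomerase gene Top2a of dividing cells by 2.26 ± 0.52 and 0.54 ± 0.52. For all 3 the adjusted p of the difference was 0.863, so these changes are not shown to differ. Of the 37 cell cycle genes 16 were called higher in conventional pregnancy, and 3 in germ-free pregnancy with the germ-free libraries fitted alone. Germ-free and conventional mice also differed in age and in how the pregnancy was dated, and these cannot be told apart from the absence of microbes.

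**Figure D5:**
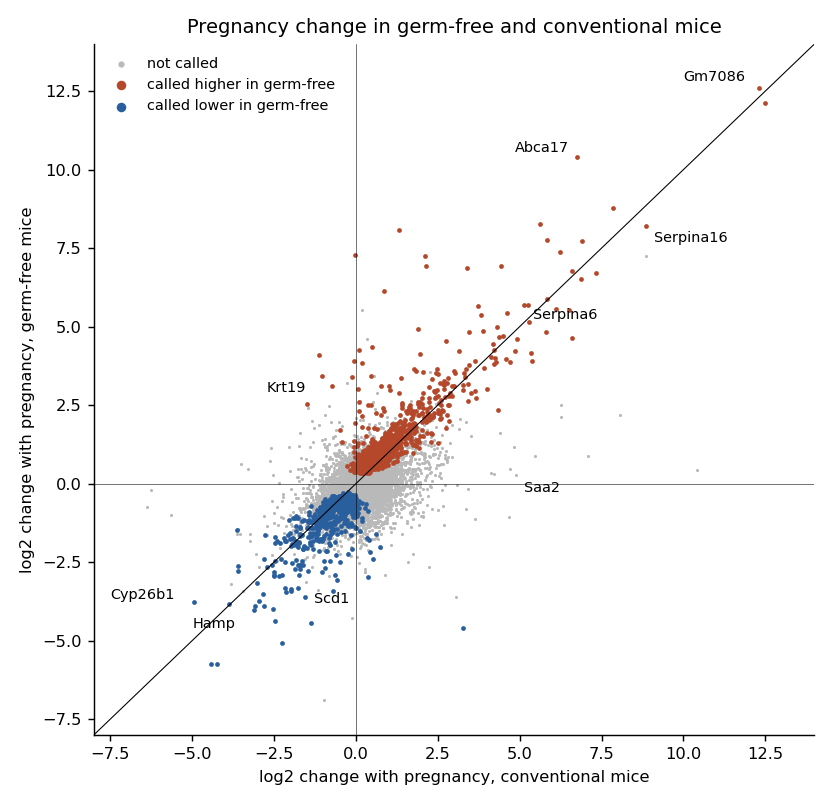
Log2 change with pregnancy in germ-free (vertical) against conventional mice (horizontal), 1 point per gene, with the line of equal change. Most genes called higher (red) or lower (blue) in germ-free mice lie in the quadrants of equal sign, with Gm7086 at the upper end, and 4 genes lie beyond the axes. Krt19, which rests on 1 liver, and Abca17 and Scd1 lie off the line. None of these differences was called by edgeR with the filter on low counts. That of Scd1 was called by DESeq2, by limma-voom and by edgeR with no filter.

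The 5 pregnant livers were not alike in the size of their response. Of the 1139 genes called higher, pregnant mouse 1 was the liver nearest to the non-pregnant mean in 568 (49.9%), mouse 2 in 235 (20.6%) and mice 3, 4 and 5 in 82, 166 and 88. Of the 574 called lower, mouse 1 was nearest in 251 (43.7%) and mouse 2 in 117 (20.4%). Since these genes were called on the same livers, the genes called in conventional pregnancy with a change above 1 log2 unit give a view that germ-free values did not choose. Over 481 such higher genes, the median difference from the non-pregnant germ-free mean was 1.15 in pregnant mouse 1, 1.34 in mouse 2 and 1.53, 1.5 and 1.5 in mice 3, 4 and 5, against -0.09 to 0.16 in the 6 non-pregnant livers. Over 218 such lower genes it was -0.87, -1.24, -1.35, -1.41 and -1.35, against -0.35 to 0.11. Mouse 1 had the smallest median in both directions. Mice 1 and 2 also had the highest mitochondrial shares of the 5, at 24.3% and 18.9% against 14.9%, 14.9% and 8.36%, and mouse 1 the lowest age label of 91. The part of either in the smaller response was not tested, and neither was that of the assumed gestation day.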

How the data were processed

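Liver RNA of single mice was sequenced, 1 library per mouse. The deposited table holds estimated counts per gene, made by the authors with Salmon 0.11.3 and edgeR 3.24.3 on mouse build GRCm38.p6, per the submitters' processing notes. Which annotation release was used, how transcripts were combined and whether reads were paired are not given in the sources used here. Reads of near-identical or overlapping genes may be split between them.

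Estimated counts were rounded to whole numbers. Genes were kept by edgeR's filterByExpr (minimum count 10, total 15), and TMM factors and edgeR 4.0.16 quasi-likelihood fits (R 4.3.3) covered all 22 libraries with 1 term per group, so the conventional libraries share in the spread estimate. Adjusted p-values are Benjamini-Hochberg over all genes, with a threshold of 0.05. The difference between pregnancy in germ-free and conventional mice was an interaction contrast. The scripts were tested on simulated data. Library totals of 18064491 to 30036912 set the counting precision.

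Groups came from the labels. All named genes lay outside drug-processing families and unnamed models. Of those called, without overlap of the groups and at 5 CPM or more, the rule took 3 sets in each direction. These were the 10 with the largest fold, the 8 with the largest CPM difference and the 3 of lowest adjusted p per list. The 5 of lowest interaction p in each direction were added whether called or not. So were Prlr, Igf1, Hamp, Mki67, G6pc, Pck1, Fasn, Cyp7a1, Afp and Alb. The rule named 125 genes, and 114 of them were called. Other list members were named after their values were seen, to describe their list. Members and lists were chosen with earlier results of these data known. Alternatives were other scalings, no filter, germ-free libraries alone, a replicate block, the age label as covariate, no mitochondrial genes, DESeq2 1.42.0, limma-voom 3.58.1 and leaving out each library. A robust spread estimate, and leaving out the 2 libraries highest in mitochondrial counts, were added after seeing the data. Promoter windows are RefSeq sequences, found by symbol for 11329 of the 15928 genes. Results for some genes are not reported here.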

Additional observations from a re-analysis of the deposited data

Results flagged for a closer look

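Of 338 sets of values of 1 gene or list in 1 group, 24 held a mouse whose gap to its nearest neighbour was above 0.625 (6 mice) or 0.71 (5 mice) of the whole range, and chance gives about 1 in 20. Values are CPM for genes and mean log2 CPM for lists.

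Non-pregnant mouse 2 was low in Alb (36217, the others 52740 to 63488), Mup17 (0.604), Igfbp4 (1361), Tm7sf2 (52.5) and Axin2 (4.6), and in the pericentral (5.54, the others 6.18 to 6.35) and circadian clock lists (3.68, the others 4.29 to 4.56). It was high in Etnppl (226, the others 69.3 to 90.4) and Adam11 (23.8, the others 2.1 to 3.52). Adam11 changed by -2.76 without it. Non-pregnant mouse 4 was low in Colgalt2 (0) and Asgr1 (483), and non-pregnant mouse 6 was high in Mup20 (375) and low in the female-biased list (3.65, the others 5.12 to 5.92).

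Pregnant mouse 2 was high in Krt19 (62.8), Serpina1b (15788) and Ahsg (19111) and low in A1bg (2029). Its cholangiocyte markers averaged 4.03 against 0.96 to 1.53 in the others, its hepatocyte markers 12.21 against 11.76 to 11.85, its periportal list 8.78 against 8.03 to 8.21 and its pericentral list 5.69 against 6.08 to 6.17. The call of Ahsg was lost without it (log2 change 0.62, adjusted p = 0.0539, edgeR's quasi-likelihood test). Pregnant mouse 1 was low in Itih4 (4650) and high in Lect2 (96.1, the others 48.2 to 57.3), and pregnant mouse 3 was high in Cyp7a1 (248, the others 127 to 137), which starts the conversion of cholesterol to bile acids.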

How the results depend on the processing

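The germ-free comparison called 1378 genes with no filter, 1653 with limma-voom, 1722 with RLE scaling, 1760 with upper quartile scaling, 1993 in germ-free libraries alone, 1729 with the age label as covariate and 1350 without the 2 libraries highest in mitochondrial counts, against 1713. DESeq2 called 875 lower, 828 of them outside the drug-processing families. Without single germ-free mice the calls ran from 1202 (without pregnant mouse 5) to 2090 (without pregnant mouse 1), and the lower calls outside the drug families from 353 (without pregnant mouse 3) to 729 (without pregnant mouse 1). The difference between the 2 pregnancies was called for 0 genes by edgeR, 2 with no filter, 7 by DESeq2 and 2 by limma-voom, among them Scd1 and Cyp2b13 in all 3, and for 0 to 2 genes without single mice. The cause was not tested. With the replicate number as a block the germ-free libraries gave 1928 calls (1176 higher, 752 lower) and the difference 0. Same-numbered mice correlated at 0.147, 0.132 and 0.138 for numbers 1, 2 and 5, which also matched best with their own number, and at 0.0044 and 0.0747 for numbers 3 and 4, so a pairing was taken as not shown. Under the block the cholesterol list had 7 higher calls (2 without it), nuclear respiratory chain genes 15 lower (7), cholangiocyte markers 0 higher (4), pericentral genes 4 higher (0) and 4 lower (2), plasma carriers 4 lower (2), interferon genes 5 lower (2) and lipid synthesis 6 higher (3). Male-biased genes, drug families included, had 5 higher (3) and 4 lower (7). Of 114 named genes called, 94 were called under all 22 settings and 0 reversed, and 48 of 92 list counts moved by more than 1.5 times under at least 1. With no filter the call of Alb was lost (1.08, adjusted p = 0.127, edgeR's quasi-likelihood test).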
